A study of Mus musculus with 8 samples.

Results

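The 10 genes described here are the receptors for bone morphogenetic proteins (BMPs) and the genes that cells switch on when those receptors are engaged, in colon epithelium and fibroblasts of the mouse. They are Bmpr1a, Bmpr1b, Bmpr2, Acvr1, Id1, Id2, Id3, Id4, Smad6 and Smad7, taken by their gene symbols from 32285 genes in the count tables. The rule uses no measured value, but the genes were chosen with earlier results of these data known. The study grew colon assembloids, in which epithelial organoids and stromal cells are cultured together, and asked how their cells compare with those of organoids alone and of the colon itself. Cells came from young adult male C57BL/6 mice. They were sorted as live cells and counted by 10x Genomics 3' single-cell RNA sequencing in 8 libraries. There were 2 libraries of the stroma of assembloids, and 2 each of the epithelium of assembloids, of organoids and of colon tissue. Organoids were grown from colon crypts in a medium with EGF, A83-01, a surrogate Wnt, CHIR-99021, R-spondin 1 and noggin, a BMP antagonist. Assembloids were made from such organoids and precultured colon stroma, and grew without the surrogate Wnt, CHIR-99021, R-spondin 1 and noggin, so that EGF and A83-01 (an inhibitor of the TGFβ and activin type I receptors) were shared by both cultures. Tissue epithelium was freshly isolated crypts, and assembloid stroma was sorted as EpCAM-negative cells. Enzymes for dissociation differed between the groups. The labels number the replicates, and the study's methods call them biological replicates, from different mice for the stroma. For epithelium they do not say whether each library came from its own mouse. P-values of epithelial groups compared without a block measure the spread between these libraries. Where classes of the same libraries were compared, the library was a block. P-values there, those of the differences between groups included, measure how class differences scatter over libraries, with 1 spread shared by all classes and groups.

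BMPs bind a complex of type I receptors (encoded by Bmpr1a, Bmpr1b and Acvr1) and type II receptors (Bmpr2 among them), which phosphorylates SMAD1, SMAD5 and SMAD9. With SMAD4 these enter the nucleus and raise the transcription of the Id genes, whose proteins bind bHLH transcription factors and keep them from DNA, and of Smad6 and Smad7, whose proteins inhibit the receptors. In the colon, fibroblasts around the crypt base secrete BMP antagonists and those near the surface secrete BMPs, and BMP signaling is known to rise as epithelial cells leave the crypt base and differentiate. Neither the Id genes nor Smad7 are specific to BMPs, since TGFβ, Notch, Wnt and growth factors also act on some of them.

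Each library held between 5984 and 32932 cell barcodes and between 99133978 and 191255856 UMIs, and between 4310 and 29410 cells had at least 500 genes and at most 10% mitochondrial UMIs. The passing cells had median depths of 3444 to 35219 UMIs. They were 38.7% and 25.4% of barcodes in tissue against at least 55.1% in every other library, and any 2 libraries shared 13 to 141 barcodes, 0.217% to 0.980% of the smaller library. Cells were grouped by marker genes, none of them among the 10, and their UMIs were summed per library and class. Epithelial markers gated 26809 and 6834 cells of assembloids, 4861 and 7595 in the 2 of organoids, and in tissue 4658 and 4296. Fibroblast markers gated 7817 and 8673 cells of the stroma libraries, and 662 and 500 cells of the assembloid epithelial libraries. Stroma library 1 stands apart in 901 cells with keratins of squamous epithelium, against 38 in library 2, and these were kept out of the fibroblasts. The headers name different Cell Ranger versions for stroma and epithelium, so values of the 2 kinds of library are set side by side and not tested against each other. Levels below are UMIs of a gene per 1000000 UMIs of the summed cells (CPM). Differences are log2 fold changes ± SE from the quasi-likelihood test of edgeR with TMM factors, called at a Benjamini-Hochberg adjusted p under 0.05 over all genes tested, and all 10 genes passed the filter on low counts in each main fit, whereas fits within 1 class tested 8 or 9 of them. UMIs come from the 3' end and each gene is compared with itself only. Bmpr2 overlaps another annotated gene, Gm38125, on the same strand, so that reads there may have been shared or dropped in counting. Bmpr1a, Acvr1 and Id4 overlap genes on the other strand only.

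Of the receptors, Bmpr1a (GRCm38 chr14:34410734-34503341), the main type I receptor of gut epithelium, had 84.0 and 87.5 CPM in the epithelial cells of the 2 assembloid libraries, 55.5 and 87.4 in those of organoids and 87.5 and 93.2 in those of tissue. Bmpr2 (chr1:59763400-59879014), the type II receptor, had 31.3 and 39.7 CPM in assembloids, 23.1 and 45.1 in organoids, with 58.0 and 54.3 in tissue. Acvr1 (chr2:58388644-58567157), a type I receptor that also serves activins, had 14.7 and 22.5 CPM in assembloids, 11.5 and 26.1 in organoids, with 31.4 and 31.1 in tissue. Both tissue libraries lay above all 4 culture libraries for Bmpr2 and Acvr1, and organoid library 1 was the lowest of the 6 for all 3 receptors. None of the 3 passed the test in assembloids against tissue, where the differences were 0.32 ± 0.21 for Bmpr1a (adjusted p = 0.23), -0.28 ± 0.23 for Bmpr2 (adjusted p = 0.35) and -0.38 ± 0.28 for Acvr1 (adjusted p = 0.30), nor in either comparison with organoids, where they lay between -0.56 and -0.14. The sign for Bmpr1a depends on the scaling, with -0.08 when counts were scaled to all UMIs.

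**Figure D1:**
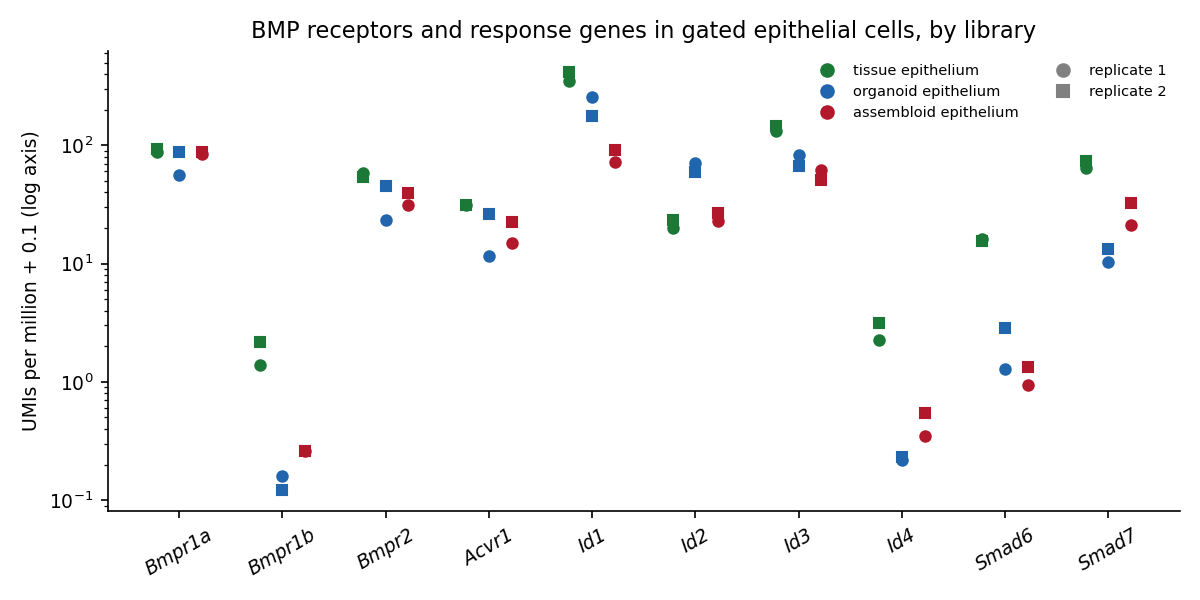
Level of each of the 10 genes in epithelium-gated cells, as CPM plus 0.1 on a log axis, with 1 point per library. All genes but Bmpr1a and Id2 lie lower in the 4 culture libraries than in the 2 of tissue, and Id2 is highest in organoids.

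Of the response genes, Id1 (chr2:152736251-152737410), the member of the family most often used as a readout of BMP signaling, had 72.4 and 90.5 CPM in assembloids, 253 and 175 in organoids, with 349 and 418 in tissue. The 3 groups did not overlap, and tissue was highest. Id3 (chr4:136143497-136145755), a close relative of Id1 with the same targets, followed the same order with 61.2 and 51.0 CPM in assembloids, 82.1 and 67.2 in organoids, with 132 and 146 in tissue. Smad6 (chr9:63953076-64022059), the inhibitory SMAD that acts mainly on BMP receptors, had 0.847 and 1.25 CPM in assembloids, 1.19 and 2.78 in organoids, with 16.0 and 15.4 in tissue. Smad7 (chr18:75367529-75395935), which inhibits TGFβ receptors as well, had 21.2 and 32.2 CPM in assembloids, 10.2 and 13.3 in organoids, with 64.5 and 74.0 in tissue. For both inhibitory SMADs, every culture library lay below every tissue library.

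Between assembloid and tissue epithelium, 6 of the 10 genes were called and all 6 were lower in assembloids, where 49.5% of all genes tested were called and 23% were called lower. In simulated data the comparisons of whole epithelium, those with organoids included, made more false calls than the threshold allows. The fall was 1.85 ± 0.32 on the log2 scale for Id1 (adjusted p = 0.0020), 0.91 ± 0.27 for Id3 (adjusted p = 0.024), 3.53 ± 0.35 for Smad6 (adjusted p = 0.00015) and 1.00 ± 0.20 for Smad7 (adjusted p = 0.0045), and Id4 and Bmpr1b, described further on, were the others. Summed counts cannot tell fewer cells of a type from less RNA per cell. The makeup of the 2 epithelia differed as well. Colonocyte markers summed to 1563 and 2087 CPM in assembloids and 6969 and 7627 in tissue, with 6 of 8 called lower, and cycling markers to 840 and 644 against 401 and 307, with 8 of 10 called higher. Of the markers of goblet, enteroendocrine and stem cells, 8 of 9, 6 of 8 and 6 of 8 were lower. Their part in the result was not tested. Comparisons within stem-gated, colonocyte-gated and goblet-gated cells are described further on, and these classes also differed in the level of their own markers. The median of the 10 was -0.96 against 0.03 over all genes tested. TMM moved the median gene up by 0.39 against scaling to all UMIs, and of the called genes 53.6% were higher in assembloids with TMM and 37.8% without it. All 6 calls and their directions held without TMM, where 52.5% of genes were called, with Id3 at -1.31 and Id1 at -2.24. The call for Id3 was lost without assembloid library 2 (adjusted p = 0.12), without tissue library 1 (0.088) and without tissue library 2 (0.14), and that for Smad7 without tissue library 2 (0.054).

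Id2 (chr12:25093799-25097140) took another course. It had 22.9 and 26.8 CPM in assembloids, 70.1 and 59.2 in organoids, with 19.7 and 23.3 in tissue, so that organoids lay above both other groups. It was higher in organoids than in tissue by 1.85 ± 0.24 (adjusted p = 0.00048) and than in assembloids by 1.25 ± 0.23 (adjusted p = 0.0028). Assembloids and tissue differed by 0.60 ± 0.23, which was not called (adjusted p = 0.062) but was called in several alternatives, DESeq2 among them (0.037).

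Organoid against tissue epithelium gave 5 calls among the 10, 1 higher and 4 lower, where 46.9% of genes tested were called, 24.1% higher and 22.8% lower. Beside Id2, the calls were Smad6 at -2.82 ± 0.34, Smad7 at -2.34 ± 0.21, Id4 and Bmpr1b. Id1 at -0.57 ± 0.31 (adjusted p = 0.16) and Id3 at -0.64 ± 0.27 (adjusted p = 0.083) were not called, and both were called when scaled to all UMIs (adjusted p = 0.020 and 0.0087), where 43.9% of genes were called and the median gene lay lower by 0.21. Without organoid library 1, Id1 was called with TMM too, at -1.08 (adjusted p = 0.011). The makeup differed here too. Of the markers of colonocytes, goblet and enteroendocrine cells, 8 of 8, 9 of 9 and 8 of 8 were lower in organoids than in tissue, and of those of stem and cycling cells 6 of 8 and 10 of 10 were higher. Colonocyte markers summed to 397 and 318 CPM in organoids and cycling markers to 1861 and 1596, and the part of this in the result was not tested as a whole. Organoid against assembloid epithelium also gave 5 calls, 2 higher and 3 lower, where 52.9% of genes tested were called, 24.3% higher and 28.6% lower, and TMM moved the median gene by -0.16. Id1 was higher in organoids by 1.28 ± 0.31 (adjusted p = 0.0091), while Smad7 was lower by 1.34 ± 0.21 (adjusted p = 0.0012). Id3 differed by 0.27 ± 0.27 (adjusted p = 0.43) and Smad6 by 0.72 ± 0.32 (0.094). Id3 was called in 1 of 16 alternatives (adjusted p = 0.0173). In stem-gated cells, mean levels in organoids, assembloids and tissue were 69.1, 32.7 and 66.6 CPM for Id3 and 181, 57.1 and 230 for Id1. In the same order they were 2.94, 1.88 and 13.1 CPM for Smad6 and 13.4, 36.3 and 90.8 for Smad7. Markers of colonocytes and goblet cells were again lower in organoids, 8 of 8 and 8 of 9, and those of stem and cycling cells higher, 7 of 8 and 8 of 10. The calls for Bmpr1b and Id4 in this comparison were lost without any of 4 and 3 libraries in turn (adjusted p = 0.053 to 0.13 and 0.058 to 0.080). The 2 comparisons share the organoid libraries, and each shares a group with the first. Fibroblast markers summed to 245 and 46.0 CPM in assembloid epithelial cells, which is 1.59% and 0.293% of their level in fibroblasts of the same libraries, to 6.34 and 5.23 CPM in tissue cells and to at most 1.06 CPM in organoid cells. Their part in these results was not tested.

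**Figure D2:**
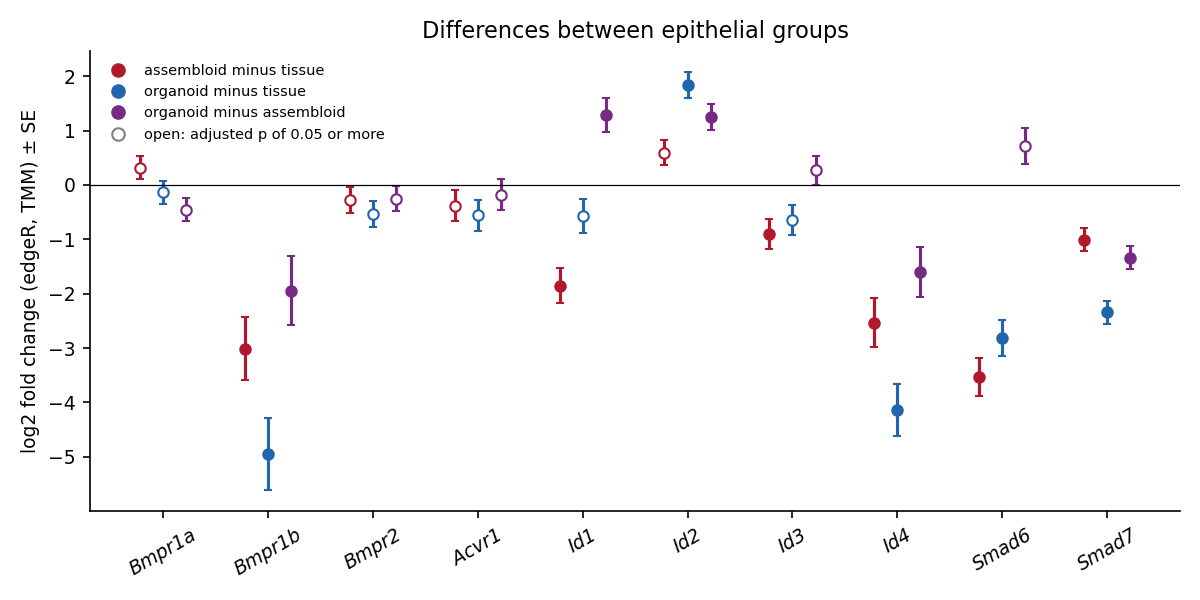
Log2 fold changes ± SE (edgeR, TMM) of the 10 genes in 3 comparisons of epithelial groups, with filled points for adjusted p under 0.05 and open points for the others. Smad6 and Smad7 are lower in both cultures than in tissue, Id1 is lower in assembloids than in tissue and in organoids, and Id2 is higher in organoids than in the other groups.

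The promoter windows of Id3 and Smad6, which were among the genes called lower in assembloids than in tissue, are shown as examples. Bmpr1b and Id4 were called lower too, and their windows were searched but are not shown. RefSeq on GRCm38.p6 gave windows from 250 bases before to 50 after the start for 8 of the 10 genes (not Id1 and Smad7), 10 windows in all. Both strands were searched for GTCTAGAC, the palindromic SMAD element, for the GC-rich elements GGCGCC and GGAGCC, and for GTCTG, none of which lies within another. The window of Id3 (chr4:136143572-136143871, plus strand) holds GTCTG and GGAGCC but neither of the others, and that of Smad6 (chr9:64022010-64022309, minus strand) holds GTCTAGAC once, shown in capitals, starting 4 bases before the annotated start.
Id3: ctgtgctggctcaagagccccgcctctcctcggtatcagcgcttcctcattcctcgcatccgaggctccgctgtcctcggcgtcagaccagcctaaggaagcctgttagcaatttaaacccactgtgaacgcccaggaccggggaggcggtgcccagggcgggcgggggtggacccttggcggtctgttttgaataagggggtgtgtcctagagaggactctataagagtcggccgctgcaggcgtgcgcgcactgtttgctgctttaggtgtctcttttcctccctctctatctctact
Smad6: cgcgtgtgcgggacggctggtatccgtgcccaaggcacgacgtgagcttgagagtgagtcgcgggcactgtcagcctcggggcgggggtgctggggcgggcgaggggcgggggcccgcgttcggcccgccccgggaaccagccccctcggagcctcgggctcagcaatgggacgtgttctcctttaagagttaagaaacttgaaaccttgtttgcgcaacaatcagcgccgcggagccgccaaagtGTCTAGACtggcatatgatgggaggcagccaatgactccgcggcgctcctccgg
GTCTAGAC occurred in 70 of 32851 promoter windows of this length, 0.213%, and among the windows of the 10 genes in that of Smad6. GGCGCC occurred in 11.9% of all windows and in 4 of the 10, those of Bmpr1a, Bmpr2, Id2 and Id4. GTCTG occurred in 49.6% of all windows and in 3 of the 10, of Bmpr1b and Id3, and GGAGCC in 30.8% and in 7 of the 10, of Acvr1, Bmpr1b, Id2, Id3, Id4 and Smad6. These are matches of letters in a short window and show no binding.

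The rest of the pathway in epithelium was read from lists of ligands, antagonists, receptors, transducers and partners, whose counts stand against 49.5% of all genes called in assembloids against tissue, 23% lower. Of 7 co-receptors and further receptors tested, 3 were higher and 3 lower in assembloids than in tissue. Rgmb, which encodes a BMP co-receptor of the repulsive guidance family, was lower by 2.00 ± 0.21 (adjusted p = 0.00019), and its relative Rgma by 3.04 ± 0.44. Of the 4 transducers, Smad5 at -1.06 ± 0.20 and Smad1 at -0.68 ± 0.19 were lower and Smad9 at 1.64 ± 0.53 was higher. Of 6 bHLH genes whose products pair with ID proteins, 4 were lower and none was higher, among them Tcf4 at -1.71 ± 0.23 and Tcf12 at -1.09 ± 0.24. Of 6 intracellular inhibitors, 1 was called, Smurf1 at 0.87 ± 0.30 (adjusted p = 0.043). Of 8 genes of the ligand list tested, 5 were higher and 1 lower, among them Bmp2, an epithelial BMP of the gut surface, at 0.75 ± 0.17 (adjusted p = 0.0073), and Bmp1, which encodes a protease, at 1.98 ± 0.54. Bmp2 in organoids lay 3.03 ± 0.18 below assembloids and 2.28 ± 0.18 below tissue. Of 6 antagonists, 4 were higher in assembloids, all of them genes with high levels in fibroblasts of the same libraries. Other response genes went both ways, with 4 higher and 1 lower of 6. Cdkn1a, a cell cycle inhibitor with many other inducers, was higher by 1.85 ± 0.25, and Atoh8, a BMP-induced bHLH gene, was lower by 1.30 ± 0.46. Fibroblast markers were higher in assembloid than in tissue epithelial cells, as given above, and their part in any of these lists was not tested.

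Along the crypt, classes were gated from cells with at least 2000 UMIs, thinned to 2000. They are called stem-gated (Lgr5, Slc12a2 and others), colonocyte-gated (Krt20, Slc26a3 and others) and goblet-gated (Muc2, Fcgbp and others), and the limits of the gates were set with values in view. Stem-gated cells numbered 486 and 375 in assembloids. Organoids had 1091 and 2236 of them, and tissue had 196 and 106. Lgr5 had 49.98 and 44.2 CPM in those of assembloids, 261 and 480 in organoids, with 237 and 170 in tissue, and in assembloid library 2 none of the 10 genes that led the class was a stem marker. Colonocyte-gated cells numbered 1563 and 814 in assembloids, 672 and 781 in tissue, and 11 and 5 in organoids, too few for a fit. Cells at or 1 UMI under the limit numbered 153 to 899 for colonocytes and 572 to 1921 for stem cells in assembloid and tissue libraries. Muc2 and other goblet markers were present in the tissue colonocyte class, with a median of 18.5 and 25.1 goblet marker UMIs per 10000, against 4.04 and 4.68 in assembloids. The markers of each gate differed as well. Colonocyte markers summed to 6238 and 7186 CPM in colonocyte-gated cells of assembloids and to 17749 and 15938 in those of tissue. Stem markers in stem-gated cells summed to 1311 and 1277 CPM against 2129 and 2100. Goblet markers in goblet-gated cells summed to 36216 and 46818 CPM against 63420 and 56787. The part of this in the comparisons below was not tested.

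Id1 and Id3 were higher in colonocyte-gated than in stem-gated cells in both groups. In tissue, Id1 had 261 and 198 CPM in stem-gated cells and 536 and 683 in colonocyte-gated cells, and Id3 had 74.9 and 58.3 against 229 and 250. In assembloids, Id1 had 61.7 and 52.6 CPM in stem-gated and 99.1 and 130 in colonocyte-gated cells, and Id3 had 37.0 and 28.3 against 69.8 and 64.4. Each colonocyte value of assembloids lay below each stem-gated value of tissue for Id1, while for Id3 the colonocyte values of assembloids lay between the 2 stem-gated values of tissue. Cycling markers were lower in colonocyte-gated cells, 10 of 10 in either group, and summed to 64.1 and 71.9 CPM in those of tissue and 244 and 187 in those of assembloids, against 729 to 1460 in stem-gated cells. Fibroblast markers summed to 134 and 52.8 CPM in colonocyte-gated and 118 and 37.8 in stem-gated cells of assembloids, with 6 of 10 called higher in colonocytes, and to at most 7.53 CPM in either class of tissue, with none called. The part of these markers in the result was not tested. In tissue the rise was 2.14 ± 0.19 for Id1 (adjusted p = 2.5e-08) and 2.59 ± 0.15 for Id3 (adjusted p = 8.9e-11). In assembloids it was 1.76 ± 0.20 for Id1 (adjusted p = 9.5e-07) and 1.82 ± 0.15 for Id3 (adjusted p = 1.6e-08). Scaled to all UMIs the rises were smaller and still called, at 1.36 for Id1 and 1.81 for Id3 in tissue and at 0.99 and 1.05 in assembloids. Of the 10 genes, 6 were called in tissue, 5 higher and 1 lower, where 46.5% of genes tested were called, 25% higher and 21.5% lower. In assembloids 7 were called, 4 higher and 3 lower, where 45.6% of genes tested were called, 20.9% higher and 24.7% lower. A mitochondrial limit of 5% left 4 of these 7 calls. Without assembloid library 2 the calls in assembloids for Bmpr1a (adjusted p = 0.063), Bmpr2 (0.57) and Id2 (0.35) were lost, and without assembloid library 1 that for Bmpr1a (0.059). In tissue the call for Acvr1 was lost without library 1 (0.14) or 2 (0.33), and that for Id2 without library 2 (0.10).

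Smad6 was at different levels in the 2 groups. It had 12.9 and 13.2 CPM in stem-gated and 30.2 and 26.7 in colonocyte-gated cells of tissue, a rise of 1.91 ± 0.32 (adjusted p = 6.2e-05). In assembloids it had 1.27 and 2.49 CPM in stem-gated cells, from 5 and 11 UMIs, and 0.605 and 0.519 in colonocyte-gated cells, from 8 UMIs in each library. There the difference was -0.97 ± 0.55 and was not called (adjusted p = 0.17), but scaled to all UMIs, where 54.9% of genes were called, it was a fall of 1.74 on the log2 scale that was called (0.0126). In tissue the rise was 1.13 on that scale (0.0061). The difference of the steps from stem-gated to colonocyte-gated cells, assembloids minus tissue, was -2.88 ± 0.65 for Smad6 (adjusted p = 0.0043) and -0.77 ± 0.22 for Id3 (adjusted p = 0.017). For Id3 it was a smaller rise, and for Smad6 a rise in tissue against a negative value in assembloids. These were the only 2 of the 10 genes called in that difference. There 19.3% of genes tested were called, 13.1% with a lower signed value in assembloids. For Id1 the difference of the steps was -0.38 ± 0.28 (adjusted p = 0.41). The call for Smad6 was lost without assembloid library 2 (adjusted p = 0.19), and that for Id3 without assembloid library 1 (0.13), organoid library 2 (0.063) or tissue library 2 (0.13).

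Scaled to all UMIs, Bmpr1a, Bmpr2 and Acvr1 ran the other way in both groups, while with TMM only Acvr1 of these was called in tissue. Bmpr1a had 145 and 160 CPM in stem-gated and 63.4 and 67.0 in colonocyte-gated cells of assembloids, and 131 and 163 against 74.4 and 82.2 in tissue. Bmpr2 had 49.98 and 74.1 CPM in stem-gated and 25.2 and 28.5 in colonocyte-gated cells of assembloids, and 97.2 and 94.9 against 51.1 and 47.2 in tissue. Every colonocyte value lay below every stem-gated value of its group. How far they differ depends on the scaling, since TMM moved the median gene by 0.77 in assembloids and 0.66 in tissue against scaling to all UMIs, and of the called genes 45.9% and 53.9% were higher in colonocytes with TMM, against 15.4% and 23% without it. Relative to other genes, Bmpr1a fell by 0.45 ± 0.11 (adjusted p = 0.0019), Bmpr2 by 0.43 ± 0.09 (0.0011) and Acvr1 by 0.76 ± 0.15 (0.00041) in assembloids. In tissue the values were -0.12 ± 0.12 for Bmpr1a (adjusted p = 0.46), -0.18 ± 0.10 for Bmpr2 (0.14) and -0.41 ± 0.16 for Acvr1 (0.037), and scaled to all UMIs all 3 were called, at -0.89, -0.96 and -1.19, where 51.6% of genes were called. Over the alternatives in tissue, values reached 0.03 for Bmpr1a and 0.20 for Bmpr2. Id2 and Smad7 were higher in colonocytes with TMM, by 0.44 ± 0.16 and 0.53 ± 0.14 in assembloids and by 0.66 ± 0.20 and 0.80 ± 0.13 in tissue. Without TMM the values were -0.34 and -0.24 in assembloids and -0.12 and 0.02 in tissue, none of them called. Bmpr1b at -1.51 ± 1.59 and Id4 at 0.78 ± 1.14 in assembloids, and at -1.45 ± 2.35 and -0.82 ± 1.26 in tissue, were not called.

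**Figure D3:**
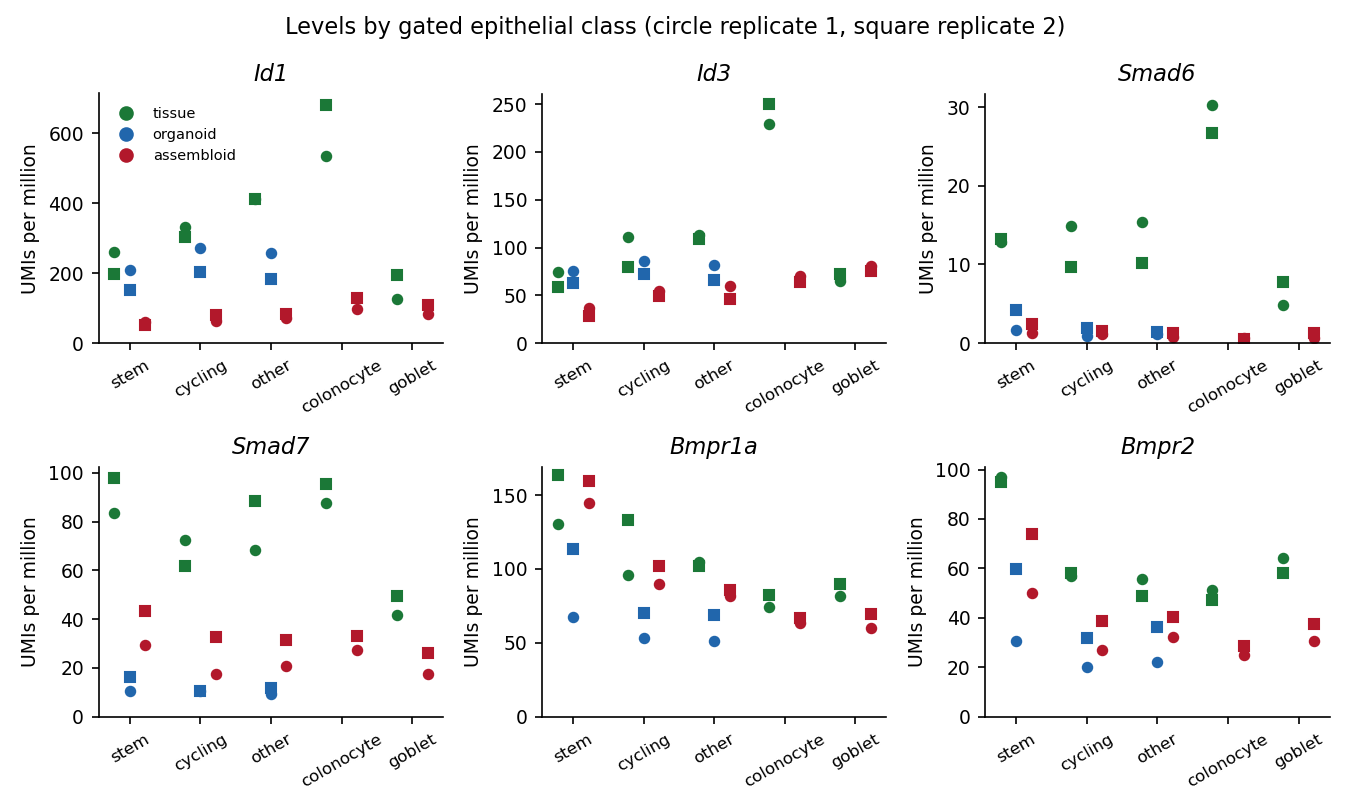
Level of 6 genes in the stem, cycling, other, colonocyte and goblet classes of epithelium, where a class had at least 50 cells, as CPM with 1 point per library. Among these 5 classes, colonocytes hold the highest Id1, Id3 and Smad6 in both tissue libraries, and stem-gated cells hold the highest Bmpr1a and Bmpr2 in each tissue and assembloid library. Enteroendocrine-gated cells are not drawn, and those of tissue library 2 had 257 CPM of Id3 and 230 of Bmpr1a.

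Within single classes the comparison of assembloids with tissue was repeated, with TMM and scaled to all UMIs. The summed markers of each gate were lower in that class of assembloids, as given above, and their part was not tested. TMM moved the median gene up by 0.29 in stem-gated, 0.515 in colonocyte-gated and 0.56 in goblet-gated cells against scaling to all UMIs, and of the called genes 51.4%, 52.1% and 53.2% were higher in assembloids with TMM, against 35.3%, 27.1% and 23.6% without it. In stem-gated cells 31.8% of genes tested were called with TMM and 30.7% without it. Id1 was lower by 1.70, Smad6 by 2.49 and Smad7 by 1.03, and Id3 at -0.73 was not called with TMM (adjusted p = 0.090) and was called without it, at -1.04 (0.019). In colonocyte-gated cells 55.8% were called with TMM and 65% without it, and Id1 was lower by 1.90, Id3 by 1.31, Smad6 by 5.14 and Smad7 by 1.08. Id2 was higher there by 0.60 with TMM, and at 0.09 was not called without it (adjusted p = 0.70). In goblet-gated cells 47.8% were called with TMM and 57.3% without it, and the calls for Id1, Id3 and Smad7 depend on the scaling. Id1 had 84.7 and 110 CPM in assembloid and 125 and 194 in tissue goblet-gated cells, a difference of -0.16 with TMM (adjusted p = 0.60) and of -0.72 without it (0.046). Id3 had 80.8 and 75.2 CPM in assembloids and 65.5 and 72.2 in tissue, and was higher in assembloids by 0.75 with TMM (adjusted p = 0.0096), whereas scaled to all UMIs it was at 0.18 and was not called (0.38). On neither scale was Id3 lower in assembloid goblet-gated cells, against a fall in the whole epithelium and in colonocytes on both. Id2 was higher by 1.52 (adjusted p = 0.0011), or by 0.96 without TMM (0.0049), and Smad6 was lower by 2.09, or by 2.64 without TMM. Smad7 at -0.49 was not called with TMM (adjusted p = 0.085) and was called without it, at -1.04 (0.0081). Bmpr2 and Acvr1 were called lower without TMM in colonocyte-gated cells, at -0.87 and -0.84, and in goblet-gated cells, at -0.84 and -0.98, and with TMM in none of the 3 classes.

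In tissue, goblet-gated cells (784 and 1315 cells), the mucus-secreting class, held less of Id1, Id2, Id3 and both inhibitory SMADs than colonocytes. This comparison was added once the values were known. In tissue Id1 was lower in goblet-gated than in colonocyte-gated cells by 2.21 ± 0.18 (adjusted p = 9.8e-09), Id3 by 2.07 ± 0.12 (1.8e-10), Smad6 by 2.43 ± 0.29 (1.3e-06), Smad7 by 1.29 ± 0.11 (3.5e-08) and Id2 by 0.64 ± 0.15 (0.0014), and Acvr1 was higher by 0.70 ± 0.12. Bmpr1a, Bmpr2 and Bmpr1b were not called, at -0.14 ± 0.10, 0.04 ± 0.08 and 1.01 ± 1.80. With Id4 that made 7 of 10 called, 2 higher and 5 lower, where 42% of genes tested were called, 21.6% higher and 20.4% lower. This comparison in tissue made more false calls in simulated data than its threshold allows. In assembloids (808 and 418 goblet-gated cells) 3 of the 10 were called where 26.6% of genes were, 12.8% higher and 13.7% lower, Acvr1 and Id4 higher and Smad7 lower by 0.70 ± 0.14. Id3 did not pass the test there (adjusted p = 1), and its levels were 80.8 and 75.2 against 69.8 and 64.4 CPM. Id1 differed by -0.46 ± 0.18 (adjusted p = 0.073), and was called lower in 8 of 15 alternatives, DESeq2 among them (0.025). Scaled to all UMIs, where 30.2% of genes were called, Id2 at 0.50 (0.0067) and Bmpr2 at 0.34 (0.024) were called higher in goblet-gated cells of assembloids, and in tissue, where 44.6% were, so was Bmpr2 at 0.31 (0.012). The call for Acvr1 in assembloids was lost without assembloid library 2 (0.21). The colonocyte gate allowed at most 1 stem marker UMI and the goblet gate set no such limit, so stem markers differ in part by the gates. Stem and cycling markers were higher in goblet-gated than in colonocyte-gated cells too, 7 of 8 and 10 of 10 in tissue and 4 of 8 and 7 of 10 in assembloids. They summed to 1021 and 821 CPM (stem) and 340 and 335 CPM (cycling) in goblet-gated cells of tissue, and to 234 and 314 CPM and 505 and 308 CPM in those of assembloids. The difference between the 2 groups was 2.07 ± 0.17 for Id3 (adjusted p = 4.4e-07), 1.75 ± 0.25 for Id1 (0.000125), 3.02 ± 0.63 for Smad6 (0.0031), 0.92 ± 0.20 for Id2 (0.0047) and 0.58 ± 0.18 for Smad7 (0.036). These 5 of 10 were called where 14.7% of genes tested were called, 8.04% with a higher value in assembloids. In the same difference 5 of 8 stem and 8 of 10 cycling markers were called lower and 5 of 9 goblet markers higher, and their part in the result was not tested. Scaled to all UMIs, where 14.1% of genes were called, Smad7 was at 0.53 and was not called (adjusted p = 0.098), and the other 4 were called. Without assembloid library 2 the calls for Smad6 (2.19, adjusted p = 0.24) and Smad7 (0.48) were lost. That for Smad7 was also lost without organoid library 2 (0.056), tissue library 1 (0.43) or tissue library 2 (0.11), and that for Id2 without tissue library 1 (0.052). TMM moved the median gene by -0.20 in assembloids and -0.27 in tissue, and the share of called genes higher in goblet-gated cells was 48.4% and 51.3% with it and 70.6% and 68.8% without it.

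Bmpr1b and Id4 were rare in epithelium, and in tissue most of their UMIs lay in 1 class each. Bmpr1b (chr3:141837136-142169425), a further BMP type I receptor, had 61 and 77 UMIs in the epithelial cells of the tissue libraries. Of these, 56 and 74 lay in 43 and 77 enteroendocrine-gated cells (Chga, Neurod1 and others), which was 91.8% (95% exact interval 81.9 to 97.3) and 96.1% (89.0 to 99.2) of the UMIs in 0.923% and 1.79% of the cells. The level was 123 CPM in both libraries (95% Poisson intervals 92.8 to 160 and 96.9 to 155), and between 0 and 0.359 CPM in every other class of tissue with 50 or more cells. Assembloid enteroendocrine-gated cells, 140 and 42 in number, had 0 UMIs of Bmpr1b in both libraries, which allows up to 4.19 and 4.02 CPM at 3 counts. In organoids 10 of 11 Bmpr1b UMIs of library 1 lay in 5 enteroendocrine-gated cells, and in library 2 there were 2 UMIs in all and none in 10 such cells. Bmpr1a in the same class had 173 and 230 CPM in tissue and 100.5 and 149 in assembloids, and Id2 had 83.4 and 242 in tissue and 22.3 and 53.6 in assembloids. Intervals and limits cover counting error alone, and no fit was made since tissue library 1, assembloid library 2 and both organoid libraries had fewer than 50 such cells. Enteroendocrine marker UMIs per 10000 had medians of 64.8 and 118 in the gated cells of tissue and 43.4 and 183 in those of assembloids. Among the genes that led the class, Tac1 and Reg4 appeared in assembloid library 1 and Gcg and Insl5 in tissue library 2. Chga, Chgb, Tph1 and Pyy led in both of these. Whether the 2 groups hold the same kinds of enteroendocrine cell was not tested.

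Over the whole epithelium Bmpr1b had 26 and 17 UMIs in assembloids and 11 and 2 in organoids. It was lower in assembloids than in tissue by 3.01 ± 0.59 (adjusted p = 0.0037) and in organoids by 4.95 ± 0.66 (adjusted p = 0.00056), with enteroendocrine markers lower too, 6 of 8 in assembloids and 8 of 8 in organoids. The part of that in the result was not tested. In the assembloid libraries, Bmpr1b was found in fibroblasts, with 6.93 and 17.1 CPM, and the sum of all passing cells gave -0.82 against tissue, which was not called (adjusted p = 0.23).

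Id4 (chr13:48261228-48266026), the member of the family that can oppose the others, lay mostly in goblet-gated cells in tissue. These held 85 of 101 and 92 of 112 Id4 UMIs of tissue epithelium, and 10 of 41 and 36 of 48 of those of assembloid epithelium. In tissue that was 6.25 and 6.80 CPM, against 0.0723 and 0.301 CPM in colonocyte-gated cells with 1 and 4 UMIs. Enteroendocrine-gated cells of tissue library 2 had a similar level, 6.67 CPM, from 4 UMIs. Organoids had 15 and 2 Id4 UMIs in 43 and 40 goblet-gated cells, and 22 and 12 in the whole epithelium. The difference of goblet-gated from colonocyte-gated cells was 4.97 ± 0.75 in tissue (adjusted p = 2.4e-05) and 3.30 ± 0.73 in assembloids (adjusted p = 0.0021), where goblet-gated cells had 1.61 and 3.85 CPM. The latter was lost without assembloid library 2 (adjusted p = 0.14), whose 36 UMIs stand against 10 in library 1. Over the whole epithelium Id4 was lower in assembloids by 2.53 ± 0.44 (adjusted p = 0.0022) and in organoids by 4.14 ± 0.48 (adjusted p = 0.00030) than in tissue. Within goblet-gated cells the difference of assembloids from tissue was -0.66 and was not called (adjusted p = 0.21), but was called when scaled to all UMIs, at -1.21 (0.0397), and goblet markers were lower in assembloid epithelium for 8 of 9 genes.

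**Figure D4:**
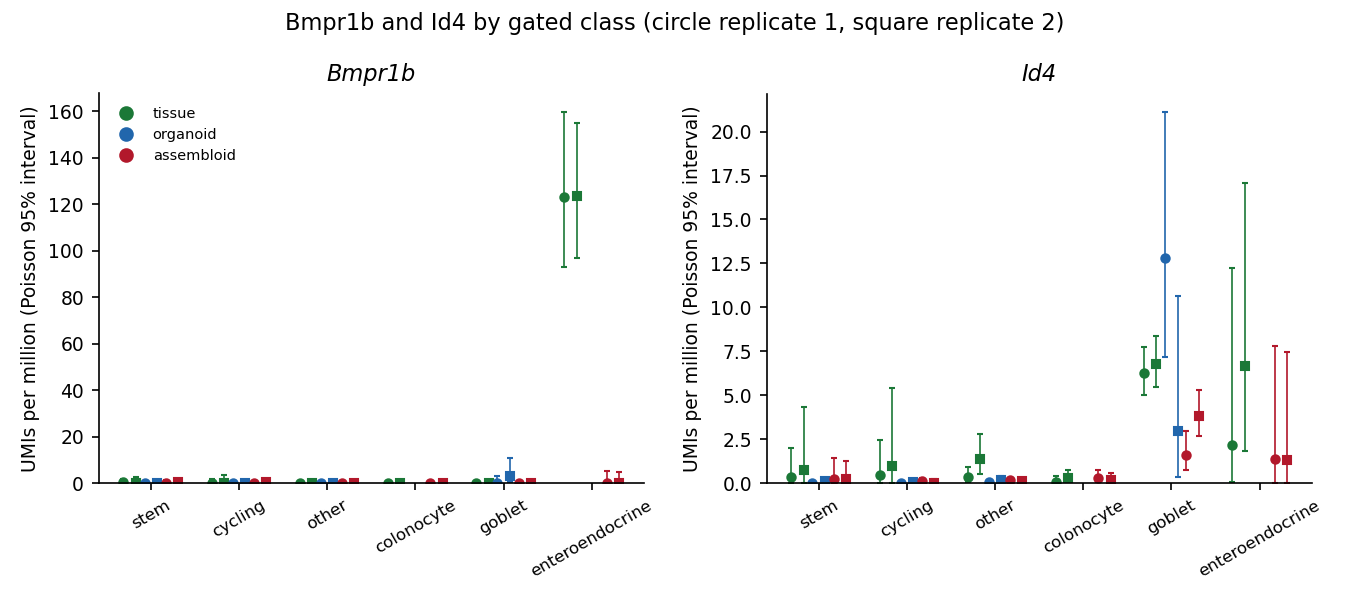
Level of Bmpr1b and Id4 in gated classes with at least 40 cells, as CPM with exact Poisson 95% intervals, 1 point per library. Bmpr1b stands out in enteroendocrine-gated cells of both tissue libraries and Id4 was seen in goblet-gated cells of each group, with 12.8 and 2.94 CPM in those of organoids, and in a few enteroendocrine-gated cells.

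Fibroblasts held more of most of these genes than epithelial cells did. Within the assembloid epithelial libraries, where both kinds of cell share a preparation, Id3 had 617 and 859 CPM in fibroblast-gated cells against 61.2 and 51.0 in epithelial cells, a difference of 3.64 ± 0.25 (adjusted p = 0.00016). Smad7 had 97.1 and 99.6 CPM, Bmpr2 had 103 and 114 and Acvr1 had 52.6 and 59.0 in fibroblasts. These were higher than in epithelium by 1.83 ± 0.20, 1.54 ± 0.18 and 1.54 ± 0.19. Bmpr1b, Smad6, Id4 and Id2 were also higher, by 6.01 ± 0.57, 2.85 ± 0.41, 2.65 ± 0.61 and 0.86 ± 0.15. Epithelial cells had means of 0.158 CPM of Bmpr1b and 0.348 of Id4, too low to pass the filter on low counts. Both genes passed it through the fibroblasts alone, so their direction was largely set by the filter. Smad6, with a mean of 1.05 CPM in epithelial cells, passed it through fibroblasts or immune-gated cells. Id1 went the other way, with 44.1 and 67.5 CPM in fibroblasts, and was lower by 0.65 ± 0.18 (adjusted p = 0.024). Bmpr1a, with 118 and 116 CPM, differed by 0.37 ± 0.22 (adjusted p = 0.19). In all, 8 of the 10 were higher and 1 lower, where 56.6% of genes tested were called, 27.9% higher and 28.7% lower in fibroblasts. The 8 include Bmpr1b, Id4 and Smad6. Epithelial markers in the fibroblast-gated cells stood at 9.76% and 6.75% of their level in epithelial cells. Id1 was not called in DESeq2 (adjusted p = 0.10), and the fit, with 2 residual degrees of freedom, made more false calls in simulated data than its threshold allows.

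The ligands and antagonists lay in these fibroblasts too. Of 7 antagonists tested all 7 were higher in fibroblasts, led by Grem1, which encodes gremlin 1, at 7.09 ± 0.68. Of 8 genes of the ligand list, 6 were higher, among them Bmp4 at 6.61 ± 0.65, and Bmp2 was lower by 1.99 ± 0.25 and Bmp3 by 3.59 ± 0.88. Of 3 bHLH partners of the ID proteins tested, all 3 were higher, Tcf4 most at 1.71 ± 0.17. These counts stand against 27.9% of all genes tested called higher in fibroblasts and 28.7% lower. A gene could pass the filter on low counts through the fibroblasts alone, so the counts depend on which genes entered.

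In the stroma libraries the fibroblast levels were 872 and 1156 CPM for Id3, 108 and 145 for Id1, 51.0 and 122 for Id2, 24.2 and 38.4 for Id4, and 7.53 and 7.04 for Bmpr1b. Library 2 was higher for each of the 4 Id genes. Receptors were alike in the 2 libraries, with 57.7 and 57.4 CPM for Bmpr1a, 67.5 and 66.6 for Bmpr2 and 32.5 and 31.4 for Acvr1. Smad6 had 5.10 and 6.37 CPM and Smad7 had 51.3 and 54.2.

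Fibroblasts of the stroma were then divided by a score of telocyte markers (Foxl1, Sox6, Wnt5a and others) less trophocyte markers (Cd34, Cd81, Rspo3 and others), and the 25% at either end were taken as telocyte-like (1757 and 1985 cells) and trophocyte-like (1914 and 2147 cells). Telocytes are fibroblasts beneath the epithelium that secrete BMPs, and trophocytes lie below the crypts and secrete BMP antagonists and R-spondins. The classes are ends of a range and no separate types, and 1116 to 1260 cells lay within 0.1 of each limit. Median telocyte marker UMIs per 10000 were 6.16 and 6.11 in telocyte-like and 2.84 and 2.31 in trophocyte-like cells, and trophocyte markers had 6.65 and 6.05 against 15.5 and 21.7. Adamdec1, a gene of fibroblasts of the lamina propria that the score did not use, led the telocyte-like class. C3, a trophocyte marker of the score, led the other. Of the telocyte markers, Enho was among the 10 leading genes in both libraries and Wnt4 in library 2, while Foxl1, Sox6 and Wnt5a were in neither.

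All 4 Id genes were lower in telocyte-like cells. Id4 had 16.6 and 20.3 CPM in telocyte-like and 35.3 and 62.7 in trophocyte-like cells, a fall of 1.42 ± 0.12 (adjusted p = 6.0e-06). Id2 had 37.0 and 70.4 CPM against 64.3 and 187, Id1 had 89.1 and 112 against 127 and 184, and Id3 had 767 and 1004 against 990 and 1363. They fell by 1.17 ± 0.14 (adjusted p = 8.0e-05), 0.66 ± 0.11 (0.00135) and 0.45 ± 0.11 (0.015). In each library the telocyte-like value was the lower one for all 4 genes, while the 2 classes overlapped over libraries for Id2 and Id3. Bmpr2 with 62.5 and 55.5 CPM against 73.7 and 79.0, and Bmpr1b with 6.02 and 3.90 against 8.01 and 7.86, were lower by 0.42 ± 0.09 (adjusted p = 0.0088) and 0.74 ± 0.19 (0.019). Bmpr1a, Acvr1, Smad6 and Smad7 were not called, at -0.14 ± 0.10, -0.01 ± 0.10, -0.36 ± 0.17 and -0.22 ± 0.12.

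That made 6 of 10 lower, where 14.2% of genes tested were called and 7.8% were called lower in telocyte-like cells. In simulated data this fit made more false calls than its threshold allows. In edgeR without the library as a block, 0 of the 10 were called and 2 had an unadjusted p under 0.05. DESeq2 with the block called 5 and lost Bmpr1b (adjusted p = 0.32), and with the study's 6 markers in the score Bmpr2 was lost, at -0.23 (adjusted p = 0.18). With 1 library the fit gives values alone. Without library 2, Bmpr1b was at -0.40 and Bmpr2 at -0.23, and without library 1 they were at -1.07 and -0.59. Cycling markers summed to 1678 and 1591 CPM in telocyte-like and 1347 and 754 in trophocyte-like cells, and their part was not tested.

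Among genes that the score did not use, 4 of the ligand list were higher in telocyte-like cells, 4 lower and 2 not called. That list also holds Bmp1, whose product is no ligand. Of all genes tested 14.2% were called, and 45% of the called genes were higher in telocyte-like cells. Bmp7 was higher by 3.72 ± 0.15, Bmp5 by 3.68 ± 0.14, Bmp2 by 2.59 ± 0.19 and Bmp4 by 1.48 ± 0.16, all ligands of these receptors. The lower ones were Bmp6 at -1.59 ± 0.24, Gdf10 at -1.46 ± 0.24, Gdf6 at -1.26 ± 0.36 and Bmp1, which encodes a protease, at -0.53 ± 0.11. Of 10 antagonists tested, 4 were lower, Chrd, Mgp and Fstl1 among them, and 6 were not called. Of 9 further response genes 3 were lower, Bmper at -1.33 ± 0.17, Atoh8 at -0.75 ± 0.12 and Cdkn1a at -0.52 ± 0.13, and none was higher. Telocyte-like cells thus had more of Bmp2, Bmp4, Bmp5 and Bmp7 and less of Bmp6, Gdf10, Gdf6 and Bmp1. Their Id transcripts were lower in both libraries, and a link with the ligands was not tested.

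**Figure D5:**
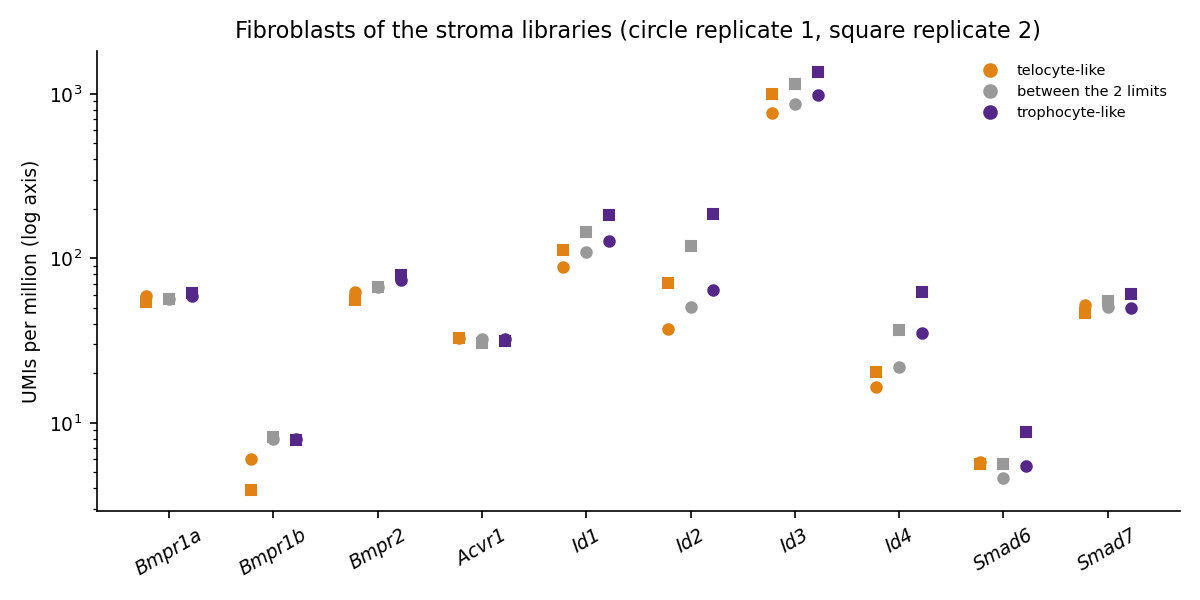
Level of each of the 10 genes in 3 ranges of the fibroblast score in the stroma libraries, as CPM on a log axis, with 1 point per library. The Id genes are lower in telocyte-like than in trophocyte-like cells of the same library, and Bmpr1a and Acvr1 lie close together.

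Other stromal classes were small. Neuron-gated cells (53 and 80) had 238 and 307 CPM of Id1 and 109 and 260 of Id2, both above the fibroblasts of the same library. Glia-gated cells (83 and 82) had 85.0 and 64.4 CPM of Acvr1, and their median fibroblast marker UMIs, 85.0 and 84.0 per 10000, stood above the 21.8 and 21.5 of glia markers. In neuron-gated cells fibroblast markers had medians of 15.1 and 14.1 against 36.0 and 48.3 of neuron markers, and in squamous cells epithelial markers had 17.7 and 16.5 against 105 and 132 of squamous markers. Immune-gated cells of the assembloid epithelial libraries (125 and 157) had 170 and 168 CPM of Id2, a gene needed for several lymphoid and myeloid cells, and 6.06 and 10.96 of Id1. Squamous cells of stroma library 1 (901) had 154 CPM of Id1 and 247 of Id3.

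Over 44 sums of a library and class with at least 50 cells, the genes most like each member by Pearson's r of log2(CPM + 1) are given as a description, since the sums share libraries and cells. They were Fat1 for Bmpr1a (r = 0.85), Stat3 for Bmpr2 (0.87), Mapk9 for Acvr1 (0.82), Rrm2b for Id2 (0.76), Tspan6 for Id3 (0.93), Btg2 for Smad7 (0.89) and Pycrl for Id1 (0.88). Among the 10 themselves, Id3 and Id4 (0.82) and Smad6 and Smad7 (0.79) were most alike.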

How the data were processed

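Single cells of 8 libraries (2 each of assembloid stroma and of assembloid, organoid and tissue epithelium from mouse colon) were measured by 10x Genomics 3' sequencing. As deposited by the authors, the values are whole UMI counts of each gene in each called cell, without normalization. The labels name Cell Ranger 6 and mm10, and per the file headers the versions were 6.0.1 for stroma and 7.1.0 for epithelium. Whether reads in introns were counted is not given in the sources used here, and UMIs of stroma and epithelium libraries were therefore not tested against each other.

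A cell needed 500 genes or more and a mitochondrial share of UMIs of no more than 10%. Cells were gated with 16 marker lists that hold none of the 10 genes described. Epithelial, fibroblast and immune cells had at least 5 UMIs and 3 distinct genes of their list, and at least 75% of the UMIs of that list and of any competing list with 2 or more genes seen. Glia, neurons and endothelium needed 4 distinct genes. Epithelial cells with at least 2000 UMIs were thinned to 2000, and classes needed 25 goblet, 5 enteroendocrine, 3 tuft, 8 colonocyte (at most 1 stem) or 3 stem (at most 2 colonocyte) marker UMIs. Fibroblasts with at least 5000 UMIs were thinned to 5000 and ranked by the difference of telocyte and trophocyte scores, the outer 25% with at least 2 UMIs of their own list being taken. No doublet caller was run. The gates of epithelial, fibroblast and immune cells limit markers of competing lists, whereas those of glia, neurons, endothelium and squamous cells set no limit on them. Free RNA was not removed.

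Unthinned counts were summed per library and class with at least 50 cells and tested in edgeR 4.0.16 (R 4.3.3) by the quasi-likelihood test after filterByExpr and TMM, with Benjamini-Hochberg adjustment over all genes tested. The fit of whole epithelium holds 6 libraries and no block. Fits of classes have the library as a block, with all classes of the 6 epithelial libraries in one fit, and residual degrees of freedom were 3 for the epithelium, 4 and 2 for the fibroblast comparisons and 10 for the epithelial classes. Same-numbered epithelial libraries did not deviate together (correlations of 0.045, -0.024 and -0.020), and no pairing was used. With 1 difference between replicates per group, this cannot tell whether same-numbered libraries share a mouse or a batch. DESeq2 1.42.0 was an alternative, beside other limits on cells, genes and gates, leaving out each library, and scaling to all UMIs. The tests were tried on simulated data, in which the comparisons of whole epithelium, of goblet with colonocyte cells of tissue and, most, of fibroblasts made more false calls than the threshold allows. With 2 libraries against 2, an exact permutation test cannot fall below a p of 0.33 for a single value, and none was run.

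The 10 genes and the lists were chosen with earlier results of these data known, and the limits of the gates and the comparison of goblet with colonocyte cells were set after values had been seen. The 10 genes are named by membership, called or not. Other named genes come from the pathway and marker lists or are the genes most like a member over the summed classes. A gene of the antagonist list is not reported here by name. Intervals are exact (95%), and a count of 0 allows up to 3 counts.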

Additional observations from a re-analysis of the deposited data

Results flagged for a closer look

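For 7 results the effect of a class differed between assembloids and tissue by a test of the difference itself (the interaction in edgeR, adjusted over all genes tested). In the step from stem-gated to colonocyte-gated cells, assembloids minus tissue gave -0.77 ± 0.22 for Id3 (adjusted p = 0.0174) and -2.88 ± 0.65 for Smad6 (adjusted p = 0.00434). Id3 rose in both groups, whereas Smad6 rose in tissue and had 5 and 11 UMIs in stem-gated and 8 and 8 in colonocyte-gated cells of assembloids.

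From colonocyte-gated to goblet-gated cells, a comparison added after values had been seen, assembloids minus tissue gave 1.75 ± 0.25 for Id1 (adjusted p = 0.000125), 2.07 ± 0.17 for Id3 (4.41e-07), 3.02 ± 0.63 for Smad6 (0.00312), 0.92 ± 0.20 for Id2 (0.00468) and 0.58 ± 0.18 for Smad7 (0.0359). In tissue all 5 were lower in goblet-gated cells. In assembloids Smad7 was lower, and the other 4 were not called, although Id1 was called lower in 8 of 15 alternatives and Id2 higher (0.50, adjusted p = 0.0067) when scaled to all UMIs. On that scale the difference for Smad7 was not called (0.53, adjusted p = 0.098). Stem and goblet markers served in the gates of these classes. Goblet marker UMIs had medians of 18.5 and 25.1 per 10000 in the colonocyte-gated cells of tissue and 4.04 and 4.68 in those of assembloids, and in the same difference 5 of 8 stem and 8 of 10 cycling markers were called lower and 5 of 9 goblet markers higher. Their part in the result was not tested. Which of the calls depend on 1 library is given beside them above.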

How the results depend on the processing

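In assembloid against tissue epithelium, 6 of the 10 genes were called, with 49.5% of all genes. In stem-, colonocyte- and goblet-gated cells 8, 8 and 9 of them were tested, and 3, 5 and 3 were called with TMM (31.8%, 55.8% and 47.8% of all genes), against 4, 6 and 7 scaled to all UMIs (30.7%, 65% and 57.3%), and Id3 reversed to 0.75 in goblet-gated cells, or to 0.18 there when scaled to all UMIs, where it was not called. Scaling to all UMIs reversed Id2 (-0.34) and Smad7 (-0.24) between colonocytes and stem cells of assembloids and Id2 (-0.12) in tissue. A mitochondrial limit of 20% turned Bmpr2 in tissue to 0.20, and one of 5% left 4 of 7 calls in assembloids. The difference of that step gave 1 call of 2 with 1 more marker UMI required. Goblet against colonocyte cells of assembloids gave 5 calls in place of 3 in DESeq2 and 5 without TMM. The causes were not tested.

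Without the replicate block (the library), calls fell to 0 of 6 between the fibroblast classes, 2 of 7 between colonocytes and stem cells of assembloids, 1 of 2 for the difference of that step, 1 of 3 for goblet cells of assembloids and 3 of 5 for the difference there. In whole epithelium the replicate block gave 6, 5 and 5 calls, as without it.

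Leaving out each library in turn gave 4 to 7 calls for assembloids against tissue, 5 to 7 for organoids against tissue, 4 to 5 for organoids against assembloids, 4 to 7 and 4 to 6 between colonocytes and stem cells of assembloids and tissue, 1 to 2 for their difference, 2 to 4 and 7 for goblet cells of assembloids and tissue, and 3 to 5 for that difference. Where this left a group with 1 library, its spread was taken from the others. Of the values of single genes under other settings, 930 kept direction and call, 28 changed sign without a call on either side, 44 lost a call, 38 gained one and 6 changed sign with a call on at least 1 side. The contrast of colonocytes with stem cells was not run in organoids, with 11 and 5 colonocytes, nor in tissue at a mitochondrial limit of 5%, with under 50 stem cells in a library. Low counts limit the values of Bmpr1b, Id4 and Smad6, which have a few UMIs in several classes.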
